A study of Mus musculus with 38 samples.

Results

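The data here concern 10 genes that mark macrophages of the omentum, taken by symbol from the 55487 genes of a table of RNA-seq counts. Most macrophages express Adgre1, Csf1r and Cd68. A further 5, Mrc1, Cd163, Lyve1, Timd4 and Folr2, mark resident and scavenging macrophages, and Trem2 and Gpnmb mark macrophages that take up lipid. The tumours came from 2 syngeneic mouse models of ovarian high-grade serous cancer, in which cultured cells of the 60577 line were injected intraperitoneally into female FVB mice and cells of the HGS2 line into female C57BL/6J mice aged 8 to 9 weeks. Treated mice received 3 weekly intraperitoneal doses of carboplatin (20 mg/kg) with paclitaxel (10 mg/kg) from day 21 (60577) or day 49 (HGS2) after injection, and control mice received the vehicle. Bulk RNA of a frozen piece of the omental tumour was sequenced 1 day (TP1), 7 days (TP2) or 21 days (TP3) after the last dose.

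The 60577 model gave 3 control and 3 treated tumours at TP1, 3 control and 4 treated tumours at TP2 and 4 treated tumours at TP3, 17 in all. The HGS2 model gave 3 control and 3 treated tumours at TP1, 4 control and 3 treated tumours at TP2 and 4 treated tumours at TP3, also 17. No control tumours of TP3 were analysed here, so TP3 tumours were set against TP2 controls, and treatment and time cannot be told apart in that comparison. One TP3 tumour of HGS2 (replicate 1) was left out of the study's own tables and is left out of the tests here. Its values are given. Each model rests on 1 injected cell line in 1 mouse strain, so differences between 60577 and HGS2 cannot be told apart from differences between FVB and C57BL/6J mice or in the time of treatment. Both lines were also sequenced in monoculture (2 libraries each), which gives the levels of the 10 genes without host cells. The labels give no genotype of the lines beyond the mouse strain, and do not tie the samples of a group to single mice, so p-values measure the spread between tumour samples. The study's own figures of expression scores give each tumour as that of 1 mouse.

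Tissue macrophages depend on the receptor for colony-stimulating factor 1, encoded by Csf1r, and either persist from embryonic precursors or are replaced by blood monocytes. In the omentum, a fatty fold of the peritoneum where ovarian tumours readily seed, resident macrophages carry the phosphatidylserine receptor TIM-4 (Timd4), the haemoglobin scavenger receptor CD163 and the hyaluronan receptor LYVE-1. Macrophages that meet dying cells or lipid raise the lipid-sensing receptor TREM2, which signals through the adaptor TYROBP, and the glycoprotein GPNMB, along with lysosomal and lipid-handling genes.

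All 10 genes are protein coding in the GENCODE M21 annotation of GRCm38. Adgre1, which encodes the surface protein F4/80, lies at chr17:57358691-57483527 (plus strand) and Cd68, a lysosomal glycoprotein gene, at chr11:69664213-69666153 (minus strand). The mannose receptor gene Mrc1 lies at chr2:14229392-14332057 (plus strand), Cd163 at chr6:124304656-124330527 (plus strand), Lyve1 at chr7:110850607-110863239 (minus strand), Timd4 at chr11:46810800-46844332 (plus strand) and the folate receptor beta gene Folr2 at chr7:101839988-101857194 (minus strand). Trem2 lies at chr17:48346401-48354147 (plus strand) and Gpnmb at chr6:49036546-49070929 (plus strand). Exons of Csf1r overlap those of Hmgxb3 on the other strand over 873 bases, and exons of Folr2 overlap those of Gm10602 over 975 bases. Whether the counting used strand is not stated, so reads in these overlaps cannot be assigned with certainty.

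RefSeq promoter entries (GRCm38.p6) were present for 7 of the 10 genes, with 2 start sites for Folr2. The 250 bases before the start are shown for the 4 genes whose changes lead the results, Cd68, Trem2 and Gpnmb 1 day after treatment and Timd4 at 21 days. Capitals mark, on either strand, the core of the site of the myeloid factor PU.1 (GAGGAA), the core of the box bound by MITF and its relatives (CATGTG) and an AP-1 site (TGACTCA). A match on the other strand reads as its reverse complement, and no matches overlapped in the windows shown. These letters are a description of sequence and do not show binding. They are found in 23.3%, 12.3% and 4.46% of the 32851 mouse promoters of this length.
Cd68, chr11:69666171-69666420, minus strand: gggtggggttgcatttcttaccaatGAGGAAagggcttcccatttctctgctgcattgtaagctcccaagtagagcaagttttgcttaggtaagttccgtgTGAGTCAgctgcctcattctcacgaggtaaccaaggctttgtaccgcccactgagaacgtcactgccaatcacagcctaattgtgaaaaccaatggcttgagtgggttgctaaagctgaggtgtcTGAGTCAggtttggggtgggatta
Trem2, chr17:48346151-48346400, plus strand: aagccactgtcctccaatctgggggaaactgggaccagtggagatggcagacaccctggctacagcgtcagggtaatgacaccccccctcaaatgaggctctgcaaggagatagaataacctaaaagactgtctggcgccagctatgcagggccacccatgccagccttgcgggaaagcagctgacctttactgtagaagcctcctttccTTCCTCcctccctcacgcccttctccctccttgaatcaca
Gpnmb, chr6:49036268-49036517, plus strand: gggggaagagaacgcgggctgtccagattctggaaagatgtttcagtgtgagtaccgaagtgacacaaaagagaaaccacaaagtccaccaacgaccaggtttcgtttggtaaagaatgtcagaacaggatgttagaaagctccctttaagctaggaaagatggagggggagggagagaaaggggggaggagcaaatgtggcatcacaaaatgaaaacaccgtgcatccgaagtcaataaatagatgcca
Timd4, chr11:46810549-46810798, plus strand: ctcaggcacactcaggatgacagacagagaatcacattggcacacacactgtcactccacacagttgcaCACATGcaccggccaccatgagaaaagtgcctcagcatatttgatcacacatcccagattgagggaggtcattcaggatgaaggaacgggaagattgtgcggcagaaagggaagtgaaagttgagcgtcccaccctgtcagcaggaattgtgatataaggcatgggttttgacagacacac

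The Cd68 window holds the PU.1 core once and the AP-1 site in 2 places, the Trem2 window holds the PU.1 core once, 35 to 40 bases before the start, and the Timd4 window holds the MITF-type core once. None of the 3 letter strings was found in the Gpnmb window. Among the windows not shown, that of Mrc1 holds the PU.1 core in 3 places and the MITF-type core in 2, 1 of those of Folr2 holds the MITF-type core and the AP-1 site, and that of Cd163 holds none.

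Libraries held 17839641 to 49299421 assigned reads in the 34 tumours and 31633099 to 42461989 in the 4 cell line libraries. In 3 HGS2 tumours (TP1 control replicate 3, TP2 control replicate 2 and TP3 treated replicate 2) 8 genes of pancreatic acinar cells together took 75357, 146105 and 76129 CPM (counts scaled to a common library size, TMM-scaled in tumours), against 8.29 to 1889 in the other HGS2 tumours. The result of Cd163 in HGS2 at TP1 and those of Cd163, Gpnmb and Lyve1 between controls of the models are given without these libraries as well. Other values of HGS2 tumours include them. A gene was called changed at an adjusted p below 0.05 (edgeR quasi-likelihood test, Benjamini-Hochberg over 16241 genes) with an absolute log2 fold change above 1, and a ± after a log2 fold change is its standard error. Levels in cell lines are CPM with no further scaling. Where groups are said not to overlap, the share of all genes that separated likewise was not counted. In these bulk samples, fewer macrophages and less RNA per macrophage cannot be told apart.

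The tumour cells in culture held few or no reads of the 10 genes. In the 4 cell line libraries Adgre1, Cd163 and Timd4 had 0 counts throughout, which with 3 counts as the limit allows at most 0.0948 CPM per library, and Mrc1 had 4, 1, 0 and 3 counts. Folr2 had 6, 5, 4 and 2 counts and Gpnmb 1, 10, 8 and 11 counts, in the order of the 2 60577 and the 2 HGS2 libraries. Csf1r reached 1.39 CPM at most in the lines, Lyve1 0.918 CPM and Cd68 3.49 CPM. Trem2 had 4, 22, 113 and 18 counts, so that 1 HGS2 library stood at 3.57 CPM and the other at 0.477 CPM. For Lyve1 lines and tumours overlapped: 60577 control tumours held 0.827 to 6.54 CPM, the lowest of which was under the higher of the 2 60577 cell line libraries. Of the leukocyte markers, Ptprc, Coro1a, Laptm5 and Cd52 together gave 0.198 to 0.495 CPM in 60577 cells and 0.126 to 0.345 CPM in HGS2 cells, against 148 CPM or more in every tumour. No test was made between lines and tumours, which were sequenced as separate sets.

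**Figure D1:**
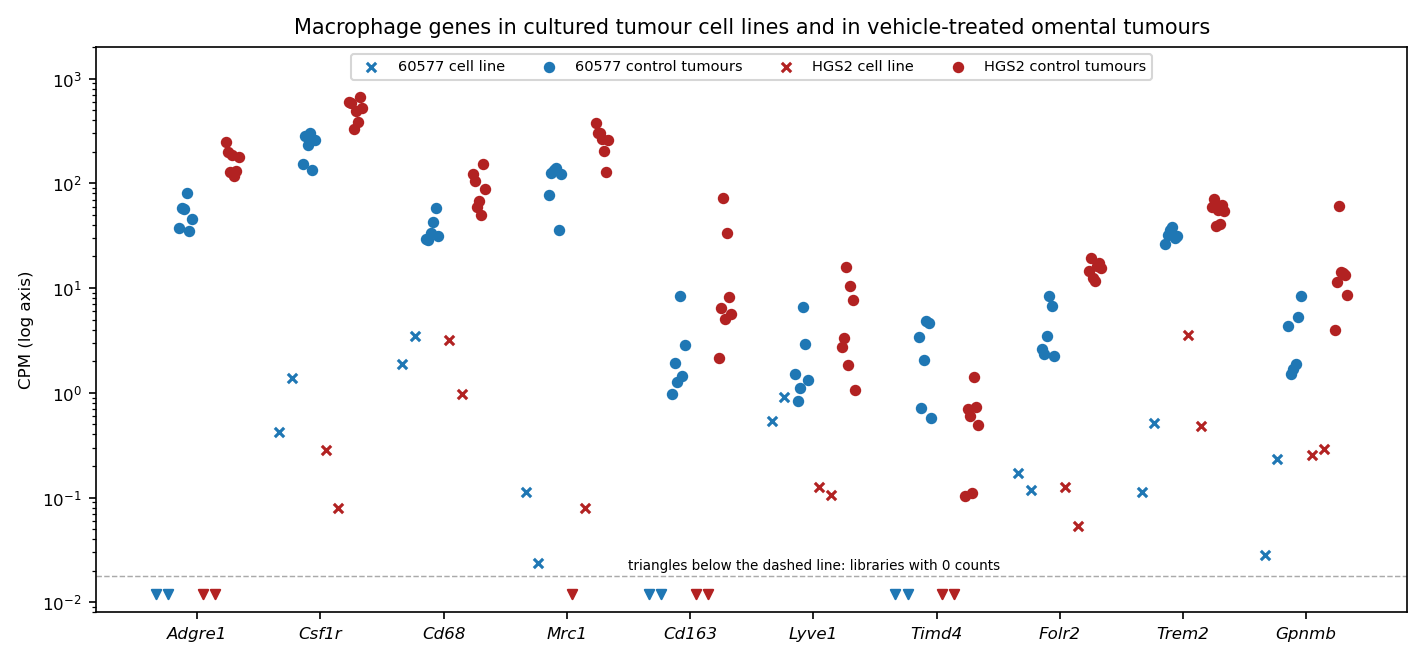
CPM (log axis) of the 10 genes in the 2 libraries of each cell line (crosses) and in the 6 control tumours of 60577 (blue circles) and 7 of HGS2 (red circles); triangles under the dashed line are libraries with 0 counts. Adgre1, Cd163 and Timd4 had 0 counts in all 4 cell line libraries, while every control tumour held reads of each gene.

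Csf1r lies at chr18:61100598-61132149 (plus strand). Per kilobase of transcript, it had the highest level of the 10 genes in control tumours of both models, with 48.3 ± 14.8 CPM per kb in 60577 (SD, n = 6) and 108 ± 25.4 in HGS2 (SD, n = 7). Next in 60577 came Cd68 (30.3 ± 9.20), Trem2 (29.7 ± 3.80), Mrc1 (19.7 ± 7.58) and Adgre1 (16.2 ± 5.21). Folr2 (3.59 ± 2.20), Timd4 (1.25 ± 0.866), Gpnmb (1.04 ± 0.727), Lyve1 (0.822 ± 0.750) and Cd163 (0.637 ± 0.640) followed. Neighbours in this order lay within overlapping ranges of mean ± SD, except for the step from Adgre1 to Folr2. In HGS2 controls Cd68 (75.3 ± 30.4 CPM per kb), Adgre1 (52.4 ± 14.4), Trem2 (50.2 ± 10.5) and Mrc1 (48.7 ± 14.6) followed Csf1r with overlapping ranges. Below a step came Folr2 (12.7 ± 2.25), and below another Gpnmb (4.88 ± 5.19), Cd163 (4.27 ± 5.77), Lyve1 (2.12 ± 1.89) and Timd4 (0.273 ± 0.206), whose ranges overlapped from one to the next.

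**Figure D2:**
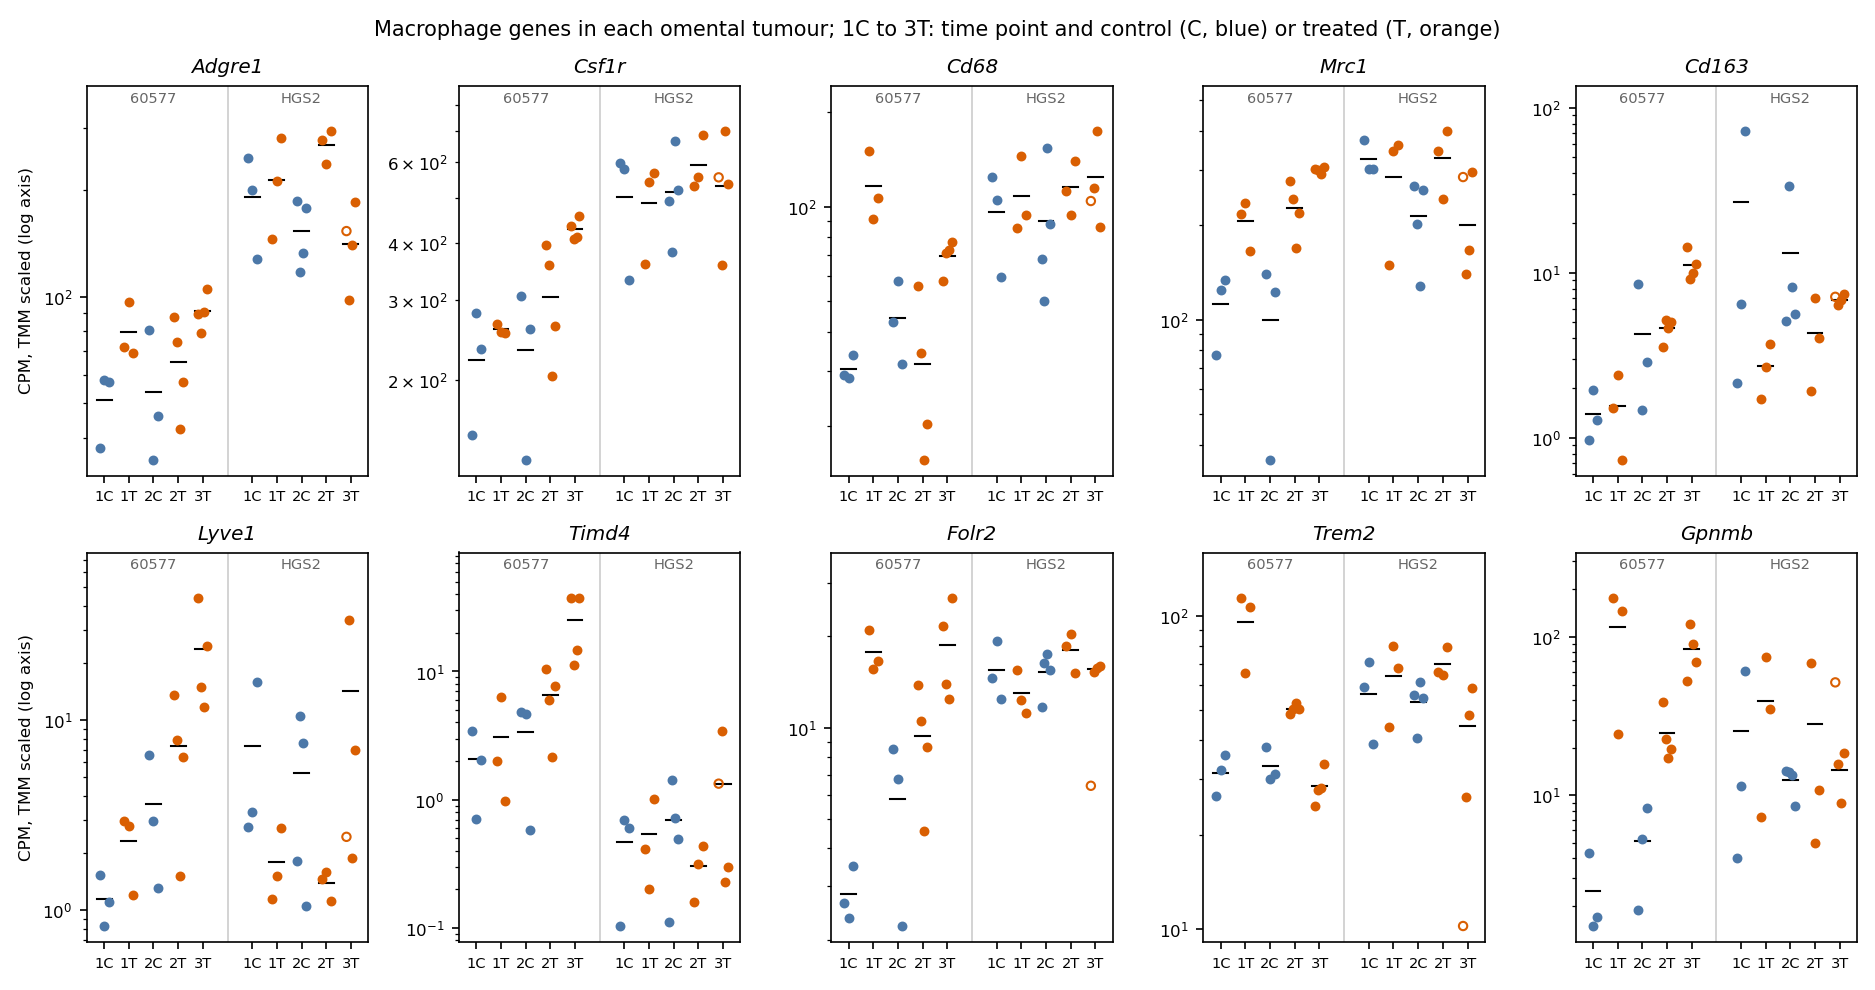
TMM-scaled CPM (log axes, a different range in each panel) of each gene in every tumour; 1, 2 and 3 are the time points, C (blue) control and T (orange) treated, bars are means of the tumours tested, and the open circle is the HGS2 TP3 tumour left out of the tests. In 60577, Gpnmb, Trem2, Cd68, Folr2, Adgre1 and Mrc1 were above every TP1 control 1 day after treatment. At 21 days all genes shown but Adgre1 and Trem2 were above every TP2 control. How many genes outside these separated likewise was not counted.

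One day after the last dose, 4 of the 10 genes were higher in treated than in control 60577 tumours and none was lower, against 9.65% of all 16241 genes called higher. The 4 were the genes of lipid-laden macrophages, Gpnmb and Trem2, with Cd68 and Folr2. Trem2, Cd68 and Folr2 belong to a cluster of genes that the study defined on these same samples, so their count is not independent evidence of a rise. The median log2 fold change of the 10 genes was 0.95 and that of all genes -0.0021.

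Gpnmb, a membrane glycoprotein of phagocytes, stood at 4.30, 1.496 and 1.70 CPM in the control tumours and at 177, 24.5 and 146 CPM in the treated tumours. The groups did not overlap, but treated replicate 2 was far below the other 2 (log2 fold change 5.54 ± 0.75, adjusted p = 9.63e-05). Trem2 was at 26.5, 32.2 and 35.9 CPM in controls and 114, 65.8 and 107 CPM after treatment, again with the lowest treated value in replicate 2 (log2 fold change 1.61 ± 0.18, adjusted p = 2.72e-05). Cd68 stood at 29.1, 28.5 and 33.7 CPM in controls and 150.2, 91.0 and 107 CPM after treatment (log2 fold change 1.94 ± 0.37, adjusted p = 0.00109), and every treated tumour lay above every control. Folr2, a folate receptor of resident macrophages, moved from 2.63, 2.36 and 3.49 CPM to 20.97, 15.6 and 16.5 CPM with no overlap (log2 fold change 2.65 ± 0.46, adjusted p = 5.80e-04). These calls held in each of 6 fits that left out 1 tumour.

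The other 6 genes did not pass the test at TP1. Csf1r differed little (log2 fold change 0.23 ± 0.28, adjusted p = 0.571), and its treated tumours, at 265, 255 and 254 CPM, fell within the control range of 152 to 279.9 CPM. Adgre1 (log2 fold change 0.65 ± 0.29, adjusted p = 0.104) and Mrc1 (log2 fold change 0.89 ± 0.35, adjusted p = 0.065) had higher values in all treated tumours than in any control, without reaching the threshold. Cd163 (log2 fold change 0.17 ± 0.53, adjusted p = 0.839), Lyve1 (log2 fold change 1.01 ± 0.73, adjusted p = 0.314) and Timd4 (log2 fold change 0.58 ± 0.82, adjusted p = 0.627) overlapped between the groups.

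At 7 days after the last dose, 2 of the 10 genes were higher in treated 60577 tumours, Gpnmb and Mrc1, against 14.8% of all genes. Gpnmb stood at 1.90, 5.31 and 8.30 CPM in controls and 39.0, 22.8, 17.1 and 19.7 CPM in treated tumours (log2 fold change 2.26 ± 0.63, adjusted p = 0.00698), all treated values being the higher. Mrc1, which encodes the mannose receptor CD206, was at 140.2, 35.9 and 123 CPM in controls and 277, 243, 169 and 219 CPM in treated tumours (log2 fold change 1.18 ± 0.34, adjusted p = 0.00772). Without control replicate 2, the lowest value, its log2 fold change was 0.79, under the fold threshold. Trem2 was 38.1, 30.1 and 31.2 CPM in controls and 48.4, 50.3, 52.7 and 50.3 CPM in treated tumours: its adjusted p was 0.00733, but its log2 fold change of 0.60 ± 0.17 was below 1. Cd68 no longer stood above the controls, with 55.7, 34.3, 15.7 and 20.4 CPM after treatment against 42.8, 57.8 and 31.7 CPM (log2 fold change -0.49 ± 0.33, adjusted p = 0.215).

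At 21 days, 6 of the 10 genes were higher in treated 60577 tumours than in TP2 controls, against 14.2% of all genes, and the median log2 fold change of the 10 was 1.498 against -0.00039 for all genes. This comparison shares its control tumours with that of TP2. All 5 resident and scavenger genes, Mrc1, Cd163, Lyve1, Timd4 and Folr2, were among them, with Gpnmb. Timd4, the receptor by which resident macrophages bind dying cells, was at 4.81, 4.66 and 0.576 CPM in TP2 controls and 37.3, 11.2, 14.7 and 37.6 CPM at TP3 (log2 fold change 2.90 ± 0.80, adjusted p = 0.00698), with no overlap. Lyve1 was at 6.54, 2.95 and 1.32 CPM in TP2 controls and 44.1, 15.0, 11.7 and 24.5 CPM at TP3 (log2 fold change 2.72 ± 0.68, adjusted p = 0.00345), also without overlap, and replicate 1 was the highest of the TP3 tumours. Lyve1 is also a gene of lymphatic endothelium, of whose 6 markers Reln was called higher at TP3 (log2 fold change 2.92 ± 0.97, adjusted p = 0.021). Flt4 (log2 fold change -1.94 ± 0.16, adjusted p = 3.06e-07) and Pdpn (log2 fold change -1.38 ± 0.21, adjusted p = 8.48e-05) were called lower. The remaining markers had positive log2 fold changes and did not pass: Mmrn1 (3.11, adjusted p = 0.057), Ccl21a (2.02, adjusted p = 0.218) and Prox1 (0.56, adjusted p = 0.579). The 6 also summed to 644 to 779.6 CPM in 60577 cells, a sum not split by marker here. The part of lymphatic endothelium in the Lyve1 values was not tested. Cd163, which had 0 counts in both lines, was at 8.48, 1.46 and 2.88 CPM in TP2 controls and 14.3, 9.09, 9.90 and 11.3 CPM at TP3 (log2 fold change 1.39 ± 0.47, adjusted p = 0.022). Its call was lost without TP2 control replicate 2 (adjusted p = 0.078), without TP2 control replicate 3 (adjusted p = 0.086) or without TP3 replicate 1 (adjusted p = 0.055).

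Mrc1 reached 302, 300.2, 291 and 306 CPM at TP3 against 140.2, 35.9 and 123 CPM (log2 fold change 1.60 ± 0.34, adjusted p = 0.00118), a narrow range among the 4 tumours. Folr2 was 21.7, 13.9, 12.48 and 26.8 CPM against 8.48, 6.77 and 2.22 CPM (log2 fold change 1.68 ± 0.42, adjusted p = 0.0037). Gpnmb was 52.7, 121, 90.0 and 69.5 CPM against 1.90, 5.31 and 8.30 CPM (log2 fold change 4.03 ± 0.68, adjusted p = 1.76e-04). Csf1r (435, 406, 412 and 456 CPM, log2 fold change 0.89 ± 0.27, adjusted p = 0.012) and Adgre1 (89.0, 78.9, 90.7 and 105 CPM, log2 fold change 0.77 ± 0.28, adjusted p = 0.030) passed on the adjusted p and stayed under the fold threshold. Trem2, which had risen with Gpnmb at TP1, stood at 24.7, 27.8, 28.2 and 33.5 CPM against 38.1, 30.1 and 31.2 CPM (log2 fold change -0.20 ± 0.17, adjusted p = 0.322). Cd68 did not pass (log2 fold change 0.67 ± 0.34, adjusted p = 0.112).

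**Figure D3:**
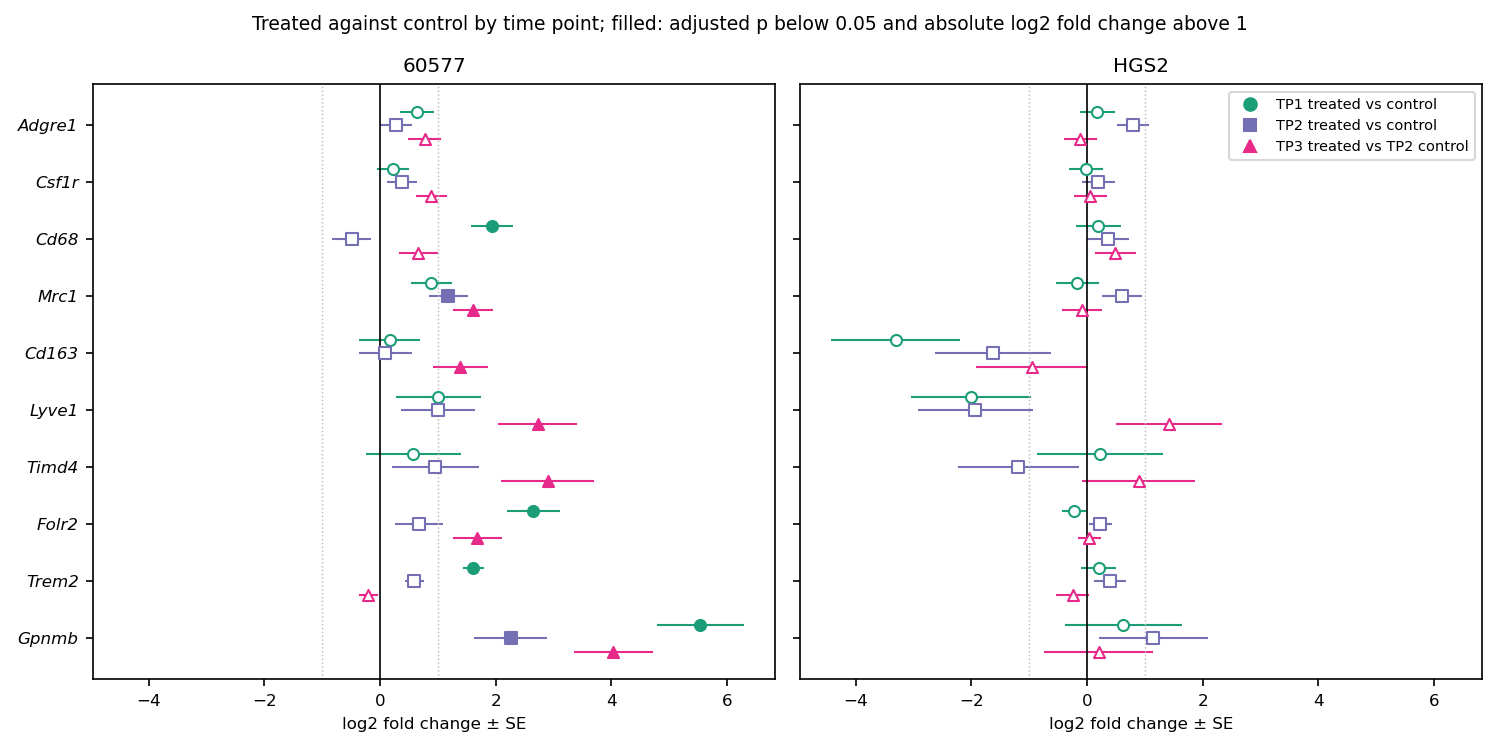
Log2 fold change (± SE, edgeR) of each gene in treated against control tumours at TP1 (circles), TP2 (squares) and TP3 (triangles, against TP2 controls) in 60577 (left) and HGS2 (right); filled symbols passed the adjusted p of 0.05 and a log2 fold change of 1, shown by dotted lines. In 60577, 4, 2 and 6 of the 10 genes were called higher; in HGS2 no symbol is filled.

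Treated 60577 tumours of the 3 time points were also compared with each other, with tumours shared between these comparisons and those above. From TP1 to TP2, Cd68 fell by 1.88 ± 0.33 on the log2 scale (adjusted p = 0.00421) and Gpnmb by 2.24 ± 0.57 (adjusted p = 0.018), 2 genes of 10 against 2.44% of all genes. Cd163 rose (log2 fold change 1.55 ± 0.49, adjusted p = 0.040), 1 gene against 3.58%, and in control tumours its log2 fold change from TP1 to TP2 was 1.63 ± 0.52 (adjusted p = 0.422). The Cd68 call held in each of 7 fits without 1 tumour, that of Gpnmb in 3 (highest adjusted p = 0.103) and that of Cd163 in 2 (highest adjusted p = 0.140). Trem2 was lower at TP2 with an adjusted p of 0.00418 and a log2 fold change of -0.93 ± 0.16, short of the fold threshold. From TP2 to TP3, 6 of the 10 genes rose, against 3.47% of all genes. The first 3 were Timd4 (log2 fold change 1.94 ± 0.69, adjusted p = 0.040), Gpnmb (log2 fold change 1.77 ± 0.54, adjusted p = 0.022), and Lyve1 (log2 fold change 1.71 ± 0.58, adjusted p = 0.034). The others were Cd163 (log2 fold change 1.298 ± 0.43, adjusted p = 0.030), Cd68 (log2 fold change 1.16 ± 0.31, adjusted p = 0.014) and Folr2 (log2 fold change 1.01 ± 0.37, adjusted p = 0.047). Trem2 had lower values again (log2 fold change -0.80 ± 0.15, adjusted p = 0.0036), its 4 TP3 tumours all lying below its 4 TP2 tumours, so that from TP2 to TP3 Gpnmb and Trem2 had opposite signs. None of these 6 rises was called without TP2 treated replicate 3, which had the lowest Lyve1, Timd4, Folr2, Cd68 and Gpnmb of its group. Further, 1 was called without TP2 treated replicate 4, 2 without TP3 replicate 1 or 4, and 3 without TP2 treated replicate 2. Between the control tumours of TP1 and TP2 edgeR called 0 of the 10 genes and 0 of all genes (0%), as did limma-voom. At an unadjusted p below 0.05 were 3 of the 10, all higher at TP2, Cd163, Lyve1 and Folr2, and 1501 of the 16241 genes. DESeq2 called 70 genes and none of the 10.

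Other cells in the 60577 tumours shifted with treatment at the same time. The summed CPM of 4 leukocyte markers was 148 to 278 in TP1 controls and 476 to 515 in TP1 treated tumours, 211 to 310.1 and 466 to 801 at TP2, and 699 to 748 at TP3. That of 7 epithelial tumour cell markers was 1711 to 2072 in TP1 controls, 451 to 755 in TP1 treated, 1958 to 2917 in TP2 controls and 348 to 432 in TP3 tumours. Fibroblast markers summed to 2748 to 4631 CPM in TP1 controls and 6519 to 10839 CPM in TP1 treated tumours, and neutrophil markers to 9.36 to 22.7 and 34.2 to 155 CPM. Mesothelial markers, at 2613 to 3014 CPM in 60577 cells, summed to 1608 to 1723 and 443 to 751 CPM at TP1. Adipocyte markers, 6 genes with Adipoq, summed to 0.994 to 6.45 CPM in TP2 controls and 998 to 1459 CPM at TP3. Pancreatic acinar markers shifted too. Prss2 was lower in treated than in control tumours at TP2 (log2 fold change -7.56 ± 1.51, adjusted p = 0.00101). It was higher in treated tumours of TP3 than of TP2 (log2 fold change 6.01 ± 1.45, adjusted p = 0.00953). In control tumours its log2 fold change from TP1 to TP2 was 12.98 ± 2.62 (adjusted p = 0.211). The other acinar markers had the same signs in these comparisons. A fit with an acinar covariate is given below. With the mean log2 CPM of the leukocyte markers as a covariate, an alternative added after the data were seen, Trem2 and Gpnmb at TP1 and Gpnmb at TP3 were still called, and the other 9 of the 12 calls of treated against control tumours were lost. Timd4 then had a log2 fold change of 2.35 at TP3 (adjusted p = 0.323, against 0.00698 without it), and Gpnmb one of 5.88 at TP1 (adjusted p = 0.0053) and 4.54 at TP3 (adjusted p = 0.043). Also at TP3, the log2 fold changes of Adgre1 (-0.87), Csf1r (-0.69), Mrc1 (-0.013) and Cd163 (-0.13) turned negative, none of them past the adjusted p. The leukocyte level itself differed between the groups compared, so the treatment and the leukocyte level cannot be told apart in this fit.

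Gpnmb, Acp5 and Ctsk are also known from osteoclasts and other multinucleate myeloid cells. The 5 osteoclast markers (Acp5, Ctsk, Ocstamp, Dcstamp and Mmp9) were all called higher in treated 60577 tumours at TP1, with summed levels of 45.0 to 74.7 CPM in controls and 150.2 to 1132 CPM after treatment. Treated replicate 2, the lowest of the 3 for Gpnmb and Trem2, was also the lowest for the osteoclast sum, with 150.2 CPM against 657 and 1132 CPM. At TP3 the sum was 181 to 215 CPM and 2 of the 5 were called higher than in TP2 controls, while Ocstamp was at 0.0332 to 0.181 CPM. In HGS2 tumours at TP3 the sum was 481 to 6999 CPM, and all 5 were called higher there than in 60577 at TP3, where Gpnmb was the higher in 60577. Of all genes 9.65% were called higher in treated 60577 tumours at TP1 and 14.2% at TP3, and 1405 of 16241 were called higher in HGS2 at TP3. The part of osteoclasts and other multinucleate cells in the Gpnmb values was not tested.

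Within a tumour, the level of a gene relative to Csf1r sets aside the total amount of Csf1r RNA. On the log2 scale, Timd4 in 60577 was -6.90 ± 1.53 relative to Csf1r in TP1 controls and -6.48 ± 1.96 in TP2 controls (SD, n = 3 each). In treated tumours it was -6.75 ± 1.32 at TP1 (n = 3), -5.67 ± 0.66 at TP2 (n = 4) and -4.28 ± 0.83 at TP3 (n = 4). For Lyve1 the values were -6.86 ± 0.68, -5.68 ± 0.92 and -4.35 ± 0.79 in the treated tumours of TP1, TP2 and TP3, against -7.50 ± 0.87 and -6.18 ± 1.18 in controls of TP1 and TP2. For Cd163 they were -7.46 ± 0.81, -6.00 ± 0.58 and -5.27 ± 0.24, against -7.25 ± 0.17 and -6.02 ± 0.75. Trem2 had values of -1.47 ± 0.42 at TP1, -2.55 ± 0.48 at TP2 and -3.91 ± 0.16 at TP3, the last below its control values of -2.77 ± 0.31 and -2.73 ± 0.50. Gpnmb relative to Csf1r was -6.55 ± 1.26 in TP1 controls, -5.62 ± 1.44 in TP2 controls and -1.59 ± 1.55, -3.65 ± 0.27 and -2.42 ± 0.57 in the treated tumours in turn. Mrc1 relative to Csf1r was -0.34 ± 0.25, -0.40 ± 0.16 and -0.51 ± 0.06 in the treated tumours in turn, against -0.98 ± 0.18 and -1.37 ± 0.46 in controls of TP1 and TP2. For Adgre1 the values were -1.72 ± 0.27, -2.22 ± 0.05 and -2.24 ± 0.11, against -2.10 ± 0.14 and -2.12 ± 0.32. These differences are not per length, so they are read across groups for 1 gene at a time, as descriptions with no test.

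**Figure D4:**
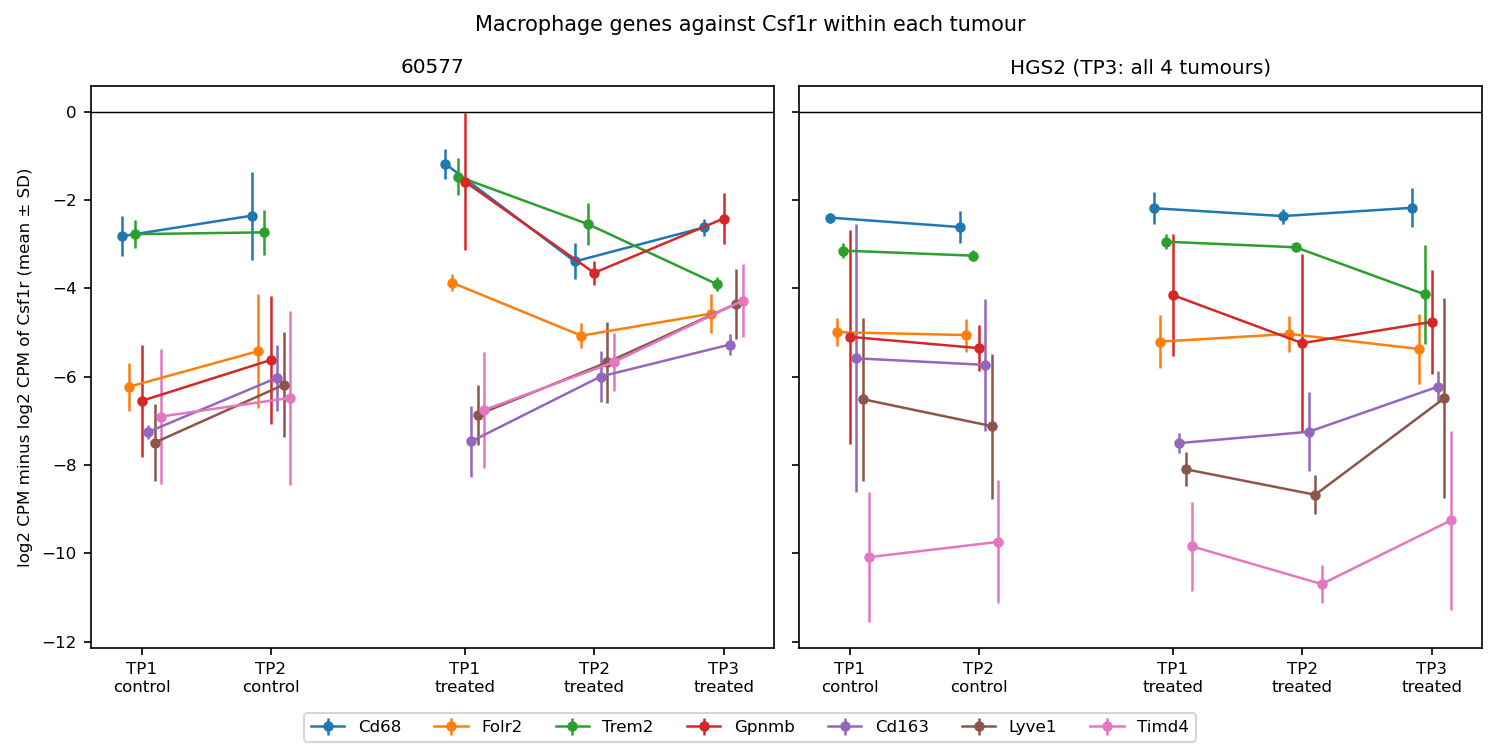
Difference between the log2 CPM of 7 genes and that of Csf1r in the same tumour (mean ± SD over the 3 or 4 tumours of a group), by time point, in 60577 (left) and HGS2 (right, TP3 with all 4 tumours). In treated 60577 tumours the Timd4, Lyve1 and Cd163 lines end higher at TP3 than at TP1 and the Trem2 line ends lower.

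In HGS2 none of the 10 genes was called in any of the 6 comparisons of treatment and time, and edgeR called 0 of 16241 genes (0%) in each. Members with an unadjusted p below 0.05 numbered 1, 1, 0, 1, 2 and 0 in treated against control at TP1, TP2 and TP3, treated TP2 against TP1, treated TP3 against TP2 and control TP2 against TP1. The same counts over all genes were 413, 1233, 406, 152, 1690 and 569. Limma-voom also called no gene in these comparisons. DESeq2 called 1, 8, 5, 1, 105 and 7 genes. The only member among them was Lyve1 at TP3 against TP2 (log2 fold change 3.35, adjusted p = 0.049 with DESeq2, 0.411 with edgeR). Csf1r lay at 332 to 667 CPM in the 7 controls and 358 to 689 CPM in the 6 treated tumours of TP1 and TP2, and its log2 fold change at TP1 was -0.01 ± 0.30. At TP1, Trem2 was at 59.3, 71.1 and 39.0 CPM in controls and 44.0, 80.0 and 68.2 CPM in treated tumours (log2 fold change 0.20 ± 0.30, adjusted p = 0.999). Folr2 was at 14.6, 19.3 and 12.4 CPM and 15.5, 12.4 and 11.2 CPM in turn (log2 fold change -0.23 ± 0.21, adjusted p = 0.999). Cd68 was at 124, 105 and 59.5 CPM and 85.4, 145 and 93.8 CPM (log2 fold change 0.19 ± 0.39, adjusted p = 0.999). The groups overlapped for each of the 3. At TP2, Adgre1 was at 186, 117, 132 and 178 CPM in controls and 276, 236 and 293 CPM in treated tumours, each of the latter above every control (log2 fold change 0.80 ± 0.28, adjusted p = 0.601). The same held for Trem2, at 56.0, 40.8, 61.4 and 54.6 CPM in controls and 65.9, 64.9 and 79.6 CPM in treated tumours (log2 fold change 0.39 ± 0.28, adjusted p = 0.722). At TP3, Csf1r was at 555, 358, 701 and 536 CPM, Trem2 at 10.2, 26.4, 48.3 and 58.7 CPM and Folr2 at 6.43, 15.3, 15.7 and 15.9 CPM, the first value of each being that of the tumour left out of the tests. Their log2 fold changes against TP2 controls were 0.06 ± 0.28, -0.25 ± 0.28 and 0.04 ± 0.19.

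Gpnmb, Cd163, Lyve1 and Timd4 varied most from tumour to tumour in HGS2. Gpnmb was at 4.00, 11.4 and 60.8 CPM in TP1 controls, 7.34, 75.1 and 34.9 CPM in TP1 treated, 14.3, 13.95, 13.4 and 8.51 CPM in TP2 controls and 68.5, 5.001 and 10.73 CPM in TP2 treated tumours. Thus 1 tumour stood well above the others in TP1 controls and in TP2 treated tumours. Cd163 reached 71.8 CPM in TP1 control replicate 3 and 33.6 CPM in TP2 control replicate 2, against 1.71 to 7.03 CPM in treated tumours of those time points (TP1 log2 fold change -3.31 ± 1.11, adjusted p = 0.999). Both are tumours with high pancreatic acinar counts, and without the 3 such tumours the TP1 log2 fold change of Cd163 was -0.67 (adjusted p = 0.814). Lyve1 was highest in the same 2 controls and in the third such tumour, TP3 treated replicate 2, with 2.76, 3.30 and 15.8 CPM in TP1 controls, 1.82, 10.5, 7.60 and 1.06 CPM in TP2 controls and 2.43, 33.7, 1.88 and 6.97 CPM at TP3. Timd4 was at most 1.43 CPM in the HGS2 tumours of TP1 and TP2, and at TP3 it was at 1.33, 3.42, 0.230 and 0.297 CPM, highest in replicate 2. Whether pancreatic or adjoining tissue carried these reads was not tested.

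The TP1 responses of the models differed for 2 of the 10 genes, Folr2 and Trem2, tested as the interaction of model and treatment over 33 tumours, against 0.997% of all genes called in that direction. Folr2 rose in 60577 and was not called in HGS2, with a difference of -2.89 ± 0.52 on the log2 scale (HGS2 minus 60577, adjusted p = 0.00705), called in each of 12 fits without 1 tumour. For Trem2 the difference was -1.42 ± 0.35 (adjusted p = 0.036), and it kept its call in 5 of 12 such fits. Gpnmb had the largest difference in size, -4.91 ± 1.31, with an adjusted p of 0.0501 (called in 4 of 12 such fits) that passed with DESeq2 (adjusted p = 0.00263) and not with edgeR. Cd163 (-3.47 ± 1.22, adjusted p = 0.120) and Cd68 (-1.76 ± 0.56, adjusted p = 0.087) did not pass. These tests include HGS2 TP1 control replicate 3, high in acinar genes, which stood at 60.8 CPM for Gpnmb and 71.8 CPM for Cd163. At TP2 none of the 10 genes differed in response by edgeR, limma-voom or DESeq2, against 6.90% of all genes called in either direction; at an unadjusted p below 0.05 were 1 of the 10 and 4705 of the 16241 genes, and the log2 differences ran from -2.94 for Lyve1 to 0.84 for Cd68.

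Vehicle-treated tumours of the models differed as well. In control tumours 8 of the 10 genes were higher in HGS2 than in 60577, against 13.2% of all genes, with a median log2 fold change of 1.47 for the 10 and 0.05 for all genes. Adgre1 was at 117 to 246 CPM in the 7 HGS2 controls and 34.7 to 80.4 CPM in the 6 of 60577 (log2 fold change 1.71 ± 0.22, adjusted p = 5.53e-07). Folr2 was at 11.7 to 19.3 and 2.22 to 8.48 CPM (log2 fold change 1.92 ± 0.26, adjusted p = 1.08e-06). Csf1r was at 332 to 667 and 134 to 305 CPM (log2 fold change 1.16 ± 0.21, adjusted p = 5.34e-05). For these 3 genes every HGS2 control lay above every 60577 control. Cd68 (log2 fold change 1.35 ± 0.28, adjusted p = 2.43e-04), Mrc1 (log2 fold change 1.32 ± 0.26, adjusted p = 1.78e-04), Cd163 (log2 fold change 2.95 ± 0.62, adjusted p = 3.07e-04), Gpnmb (log2 fold change 2.31 ± 0.65, adjusted p = 0.00435) and Lyve1 (log2 fold change 1.60 ± 0.63, adjusted p = 0.037) were the others. Without the tumours high in acinar genes Cd163 was at 1.07 (adjusted p = 0.026), Gpnmb at 1.40 (adjusted p = 0.069) and Lyve1 at 0.63 (adjusted p = 0.340). Lyve1 also lost its call without HGS2 TP1 control replicate 3 (adjusted p = 0.201) and without 6 other tumours, 1 at a time. Trem2 was higher with an adjusted p of 6.91e-04 and a log2 fold change of 0.76 ± 0.17, under the threshold. The leukocyte markers were at 244 to 1179.8 CPM in HGS2 controls and 148 to 310.1 CPM in 60577 controls. Epithelial tumour cell markers summed to 44.2 to 855 and 1711 to 2917 CPM, and fibroblast markers to 12049.8 to 71521 and 2748 to 4631 CPM. Their part in the differences between the models was not tested.

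Timd4 was the exception, at 0.103 to 1.43 CPM in HGS2 controls and 0.576 to 4.81 CPM in 60577 controls, with a log2 difference of -2.21 ± 0.68. Before TMM scaling it reached 1 CPM in 14 of 17 tumours of 60577 and 2 of 16 of HGS2, so it passed the filter on low counts through 60577, and its differences between the models are given as descriptions. Counts of members called between the models in controls and at TP3, given in the closing sections, still include Timd4. In treated tumours at TP3, Gpnmb was lower in HGS2 (log2 fold change -2.53 ± 0.89, adjusted p = 0.032), against 7.38% of all genes, and Timd4 had a log2 difference of -4.29 ± 1.03. Gpnmb was at 51.6, 15.9, 8.999 and 18.4 CPM in HGS2, the first value being that of the tumour left out of the test, and 52.7, 121, 90.0 and 69.5 CPM in 60577. With that tumour included its log2 difference was -1.82 (adjusted p = 0.091). Its call was also lost without HGS2 TP3 replicate 2, 3 or 4 or 60577 TP3 replicate 2 (adjusted p up to 0.124). Trem2 was higher in HGS2 at TP3 by 0.64 ± 0.23 (adjusted p = 0.038), under the fold threshold, and Csf1r did not differ past it (log2 fold change 0.32 ± 0.28, adjusted p = 0.409).

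Of 17 genes of TREM2 signalling and lipid handling outside the 10, 12 were higher and 0 lower in treated 60577 tumours at TP1 (median log2 fold change 1.54), 3 higher and 3 lower at TP2 (median -0.09) and 4 higher at TP3 (median 0.74). Of all genes 9.65%, 14.8% and 14.2% were called higher at TP1, TP2 and TP3, and 1561 of 16241 were called lower at TP2. The 17 genes summed to 3119 to 3738 CPM in TP1 controls, beside 2160.2 to 2888 CPM in 60577 cells and 2155 to 3368 CPM in HGS2 cells. At TP1 the genes called included Tyrobp, the adaptor of TREM2 (log2 fold change 1.54 ± 0.36, adjusted p = 0.00479), and the kinase Syk (log2 fold change 1.86 ± 0.26, adjusted p = 1.01e-04). Others were the cholesterol exporters Abca1 (log2 fold change 1.33 ± 0.15, adjusted p = 3.11e-05) and Abcg1 (log2 fold change 1.86 ± 0.15, adjusted p = 2.27e-06), the lysosomal lipase gene Lipa (log2 fold change 1.81 ± 0.31, adjusted p = 5.06e-04) and the protease gene Ctsd (log2 fold change 2.01 ± 0.36, adjusted p = 7.36e-04). Cd36 (log2 fold change 4.86 ± 0.77, adjusted p = 2.97e-04) and Fabp4 (log2 fold change 3.49 ± 1.09, adjusted p = 0.023), which adipocytes also express, were called too, in tumours in which 5 of 6 adipocyte markers were higher than in controls. Apoe, a lipoprotein gene of macrophages, was not called (log2 fold change 0.48 ± 0.36, adjusted p = 0.338). At TP3 the 4 were Cd36 (log2 fold change 5.12 ± 0.76, adjusted p = 6.40e-05), Fabp4 (log2 fold change 5.45 ± 1.15, adjusted p = 0.00107), Lpl (log2 fold change 2.29 ± 0.43, adjusted p = 4.31e-04) and Syk (log2 fold change 1.43 ± 0.24, adjusted p = 1.76e-04). Of these Lpl is also an adipocyte gene, and 6 of 6 adipocyte markers were higher in the same tumours. From TP1 to TP2 in treated tumours 10 of the 17 fell and 0 rose, against 2.44% and 3.58% of all genes. In HGS2 0 of the 17 and 0 of all genes were called at any time point by edgeR, with medians of 0.18, 0.23 and 0.09 for the 17 at TP1, TP2 and TP3. In the TP1 response 4 of the 17 (Abca1, Abcg1, Ctsd and Lipa) differed from 60577, against 235 of 16241 genes called in either direction.

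Of 16 resident macrophage genes outside the 10, 5 were higher in treated 60577 tumours at TP1, 2 at TP2 and 8 at TP3, with 0 lower (medians 1.07, 0.17 and 1.12). Of all genes 9.65%, 14.8% and 14.2% were called higher at TP1, TP2 and TP3. The 16 summed to 1287 to 1575 CPM in TP1 controls, 649.6 to 722 CPM in 60577 cells and 1008 to 2387 CPM in HGS2 cells. At TP3 the genes called included Igf1 (log2 fold change 2.38 ± 0.39, adjusted p = 1.53e-04), the complement receptor gene Vsig4 (log2 fold change 2.09 ± 0.82, adjusted p = 0.045), the carbonyl reductase gene Cbr2 (log2 fold change 2.24 ± 0.64, adjusted p = 0.00904) and the iron exporter Slc40a1 (log2 fold change 1.14 ± 0.32, adjusted p = 0.00854). The complement genes C1qa, C1qb and C1qc were not called at any time point (C1qa at TP3, log2 fold change 0.82 ± 0.39, adjusted p = 0.089). Vsig4 also rose between treated TP2 and TP3 tumours (log2 fold change 3.82 ± 0.82, adjusted p = 0.00517). In control tumours 7 of the 16 were higher and 2 lower in HGS2, against 13.2% and 8.81% of all genes. The 2 lower were Marco (log2 fold change -2.48 ± 0.94, adjusted p = 0.029) and Slc40a1 (log2 fold change -1.34 ± 0.42, adjusted p = 0.00925). In TP3 tumours 5 of the 16 were lower in HGS2, against 7.38% of all genes. Among the 5 were Fcna (log2 fold change -3.38 ± 0.91, adjusted p = 0.00595), Vsig4 (log2 fold change -3.07 ± 1.07, adjusted p = 0.032) and Igf1 (log2 fold change -2.04 ± 0.48, adjusted p = 0.002). Genes of large peritoneal macrophages gave 1 call at each of TP1 and TP3 in treated against control 60577 tumours, against 9.65% and 14.2% of all genes called higher. Of 6, Naip1 was called higher at TP1 (log2 fold change 2.13 ± 0.75, adjusted p = 0.041) and Icam2 at TP3 (log2 fold change 1.58 ± 0.51, adjusted p = 0.017). Icam2 also rose from TP2 to TP3 in treated tumours (log2 fold change 1.34 ± 0.46, adjusted p = 0.034). At TP3 4 of the 6, Alox15 (-4.31 ± 1.19), Cd5l (-3.20 ± 1.15), Naip1 (-2.62 ± 0.88) and Icam2 (-1.34 ± 0.48), were called lower in HGS2, against 7.38% of all genes. Gata6, the transcription factor that defines them, stayed under the fold threshold (TP1, log2 fold change -0.43 ± 0.14, adjusted p = 0.025). The cell lines also express genes of the peritoneal list (summed level 215 to 218 CPM in 60577 cells and 373 to 458 CPM in HGS2 cells).

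Among growth factors and transcription factors of macrophages, 4 of 9 were higher at TP1 in treated 60577 tumours, against 9.65% of all genes. They included Tfec (log2 fold change 2.35 ± 0.34, adjusted p = 1.54e-04), Nr1h3, which encodes the sterol receptor LXR alpha (log2 fold change 2.31 ± 0.32, adjusted p = 1.13e-04), and Mitf (log2 fold change 2.21 ± 0.24, adjusted p = 2.25e-05). The other was Spi1, which encodes PU.1 (log2 fold change 1.64 ± 0.30, adjusted p = 7.48e-04). Mitf stood at 5.93, 8.50 and 8.64 CPM in TP1 controls and 35.8, 21.9 and 48.0 CPM in treated tumours, and the difference between the models in its TP1 response was called (log2 fold change -1.76 ± 0.45, adjusted p = 0.040). At TP3 Nr1h3 (log2 fold change 2.58 ± 0.31, adjusted p = 9.71e-06) and Mitf (log2 fold change 1.82 ± 0.23, adjusted p = 1.44e-05) were called. Also called were Irf8 (log2 fold change 1.58 ± 0.27, adjusted p = 1.75e-04), Tfec (log2 fold change 1.07 ± 0.31, adjusted p = 0.00988) and Il34, a ligand of the CSF1 receptor (log2 fold change 1.13 ± 0.27, adjusted p = 0.00292). Cebpb was lower (log2 fold change -1.15 ± 0.25, adjusted p = 0.0014). Csf1, the other ligand, stayed under the fold threshold at TP1 (log2 fold change 0.44 ± 0.16, adjusted p = 0.045) and did not pass at TP3 (log2 fold change -0.14 ± 0.15, adjusted p = 0.441). Spi1 had 0 counts in all 4 cell line libraries, whereas Mitf was at 0.716 to 2.54 CPM there.

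The tested gene whose log2 CPM was most like that of each member over the 33 tumours, after each model's mean was subtracted, is given here as a description, since the tumours share libraries and depth. For the general genes it was C1qb for Adgre1 (r = 0.92), followed by C1qa and C1qc, then Prcp for Csf1r (r = 0.91) and Tyrobp for Cd68 (r = 0.93). Hfe was nearest to Mrc1 (r = 0.92), Cadps2 to Cd163 (r = 0.82), Nop53 to Lyve1 (r = 0.85) and Htatip2 to Folr2 (r = 0.90). Timd4 had Lyve1 as its nearest gene (r = 0.83, with 0.93 over the 17 tumours of 60577 and 0.68 over the 16 of HGS2), with Fcna next (r = 0.83). Slc35f6 was nearest to Trem2 (r = 0.88) and Pde8a to Gpnmb (r = 0.84). The value for Folr2 differed between the models: Htatip2 had r = 0.95 over the 17 tumours of 60577 and -0.21 over the 16 of HGS2.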

How the data were processed

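RNA-seq of 34 tumours and 4 cell line libraries was used. Reads (paired, stranded) were trimmed with Trim Galore 0.6.5, aligned with STAR 2.7.0f to GRCm38 (mm10) and counted with RSEM per the labels; the labels name RiboZero depletion and the study's methods a NEBNext kit. The deposited values are expected counts per gene, with no normalization, of which some are not whole; they were rounded to whole numbers here before the tests. Before its own test the study corrected for length and GC content with cqn and used limma.

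A gene was kept where 25% or more of the 33 tumours tested reached 1 CPM. After TMM scaling the quasi-likelihood test of edgeR 4.0.16 (R 4.3.3) was run within each model for treatment and time and over both models for differences between them, with Benjamini-Hochberg adjustment over all genes kept. HGS2 TP3 treated replicate 1, which the study left out, was left out. Scripts were tested on simulated data. Gene names and positions come from the GENCODE annotation of the same build, and promoters from RefSeq. No pair of replicates agreed within counting noise (chi-square per degree of freedom 9.38 to 713 over 44 pairs). Counts from RSEM are estimates, so reads shared by similar genes are split between them.

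The 10 members are those the rule names. The other genes named are members of fixed lists (partners of Trem2, resident and peritoneal macrophage genes, factors, markers of other cells; 1 item is not reported here) and the tested gene with the highest correlation with each member. The members and lists were chosen with earlier results of these data known. The alternatives were DESeq2 size factors and test, limma-voom, other filters, a replicate block, a length and GC offset, an acinar and a leukocyte covariate, all 17 HGS2 tumours, and leaving out each tumour. Fits to only the groups compared, to both models together and without the 3 HGS2 tumours high in acinar genes were run too; the last and the leukocyte covariate were chosen after seeing the data. The limit for 0 counts covers counting error only.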

Additional observations from a re-analysis of the deposited data

Results flagged for a closer look

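Of 40 sets of 4 tumours tested (each gene in each group of 4), 2 held a tumour far from the others by Dixon's test, and chance gives about 1 in 20. Folr2 was at 6.43 CPM in HGS2 TP3 treated replicate 1, against 15.3, 15.7 and 15.9 CPM in the other TP3 tumours; that tumour is not in the tests. Gpnmb was at 8.51 CPM in HGS2 TP2 control replicate 4, against 13.4 to 14.3 CPM in the other TP2 controls.

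The response to treatment at TP1 differed between the models by the interaction of model and treatment (edgeR, Benjamini-Hochberg) for Folr2, with a log2 difference (HGS2 minus 60577) of -2.89, adjusted p = 0.00705, and for Trem2, with -1.42, adjusted p = 0.036. Trem2 kept its call in 5 of 12 fits without 1 tumour, and was not called with no low-count filter, edgeR's own filter, the replicate block, the length and GC offset with or without that block, or all 17 HGS2 tumours. All 3 treated 60577 tumours lay above all 3 controls for both genes, and the HGS2 groups overlapped.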

How the results depend on the processing

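Of 3300 results of the 10 genes under alternatives (160 results in 16 comparisons), 3149 kept their direction and their side of the threshold, 119 lost the call, 28 gained it and 4 reversed. Results not called at first, among them all those within HGS2, had no call to lose. The 3149 of 3300 is therefore not the share of calls that held. With a prior count of 0.5, 100 of 100 group levels moved by less than 1 SD. The reversed results were those of 60577 TP3 with the leukocyte covariate, added after seeing the data: Adgre1 -0.87 (adjusted p = 0.051), Csf1r -0.69 (adjusted p = 0.120), Mrc1 -0.013 (adjusted p = 0.989) and Cd163 -0.13 (adjusted p = 0.929) on the log2 scale. With that covariate the members called in 60577 were 2 at TP1 (from 4), 0 at TP2 (from 2), 1 at TP3 (from 6) and 0 between treated TP3 and TP2 (from 6). Between the models they were 1 in the TP2 response (from 0) and, with Timd4 among the members, 5 in control tumours (from 9). The cause was not tested.

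Fitting only the groups compared left 1 member at 60577 TP2 and 0 between treated TP2 and TP1 (from 3), with fewer samples behind the spread. Fitting both models together left 1 between treated TP2 and TP1 and 1 between treated TP3 and TP2, and the acinar covariate left 1 in the latter. DESeq2 called 1 member between HGS2 treated TP3 and TP2 (from 0) and 5 in the TP1 response (from 2). One member, Folr2, was called in the TP1 response (from 2, Trem2 lost) with no low-count filter, edgeR's own filter, the replicate block, the length and GC offset, that offset with the block, or all 17 HGS2 tumours. With Timd4 among the members, 1 was called between TP3 tumours of the models (from 2) with the replicate block, with the offset and the block, or with all 17 HGS2 tumours. The cause was not tested.

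Leaving out 1 tumour at a time gave 4 to 4 members called at 60577 TP1, 1 to 3 at TP2, 5 to 8 at TP3, 1 to 4 between treated TP2 and TP1, 0 to 6 between treated TP3 and TP2, and 0 to 0 between controls and in the 6 HGS2 comparisons. Between the models it gave 1 to 4 in the TP1 response, 0 to 0 in the TP2 response, 8 to 9 in controls and 1 to 2 at TP3. Counts between the models in controls and at TP3 were taken with Timd4 among the members, which passed the filter on low counts through 60577. Samples share only replicate numbers: deviations of same-numbered tumours correlated between -0.418 and 0.318 in 60577 (8 of 31 pairs over 0.1) and -0.488 and 0.367 in HGS2 (10 of 27). With that replicate block 4, 2 and 6 members were called at 60577 TP1, TP2 and TP3, 2 between treated TP2 and TP1, 6 between treated TP3 and TP2, and 8 in controls between models. Depth limits Timd4 in HGS2.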
